A study of Mus musculus with 2 samples.

Results

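Hnf4a and Hnf4g encode the alpha and gamma forms of hepatocyte nuclear factor 4, and their transcripts were followed here across 15 classes of mouse thymic epithelial cells. They are 2 of the 55487 genes in the count matrix and were picked by symbol alone: Hnf4a (ENSMUSG00000017950.16) and Hnf4g (ENSMUSG00000017688.14). The data were UMI counts, in which 1 UMI stands for 1 captured RNA molecule, over 9185 cells of 7 hash-tagged samples in 1 droplet run with 3′ chemistry. All cells were medullary thymic epithelial cells with low MHC (mTEClo) that lacked Pdpn and CD104, from C57BL/6 thymus. The classes and the sample of each cell came from the authors' deposited cell table.

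The 4 Hnf4dTEC samples, called mutant here, were Foxn1(cre/+) Hnf4a(fl/fl) Hnf4g(-/-) and held 5890 cells. The 3 Hnf4ctrl samples, called control, were Foxn1(cre/+) Hnf4a(fl/+) Hnf4g(+/-) and held 3295 cells. The controls therefore also carried the cre, 1 floxed copy of Hnf4a and 1 null copy of Hnf4g, and none of the samples was wild type. Foxn1-cre acts in thymic epithelium and recombines floxed copies there, whereas the Hnf4g alleles are written as null and not as floxed. Age, the deleted exons and whether each sample was a separate animal are not given in the sources used here, so p-values measure the spread between samples, which may be technical. The 3′ reads may lie outside the deleted parts, and a transcript level in the mutant samples therefore checks neither deletion.

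HNF4 proteins are nuclear receptors that bind DNA as dimers and switch on genes of hepatocytes and of gut absorptive cells. HNF4A works in liver, gut, kidney and pancreas, and HNF4G is best known from the gut, where it overlaps in function with HNF4A. In the thymic medulla, mimetic cells take on gene programs of peripheral tissues, among them microfold, tuft, neuroendocrine, keratinocyte, muscle and gut- or liver-like cells, and display the tissue proteins to developing T cells.

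Each sample held 801 to 1652 cells, 10127838 to 25821970 UMIs and a median of 11528 to 15053 UMIs per cell, and control 3 was the deepest. Markers were checked in control cells for 11 of the 15 classes, and 39 of these 40 markers were highest in their own class. Aire-adjacent, Klk-rich, Ionocyte and Transitional cells had no marker list. The exception was Fabp1, an Entero-hepato marker that was highest in Microfold cells. Epcam, Foxn1 and Psmb11 of thymic epithelium summed to 890 to 1011 CPM (UMIs per 1000000 UMIs) in mutant samples and 883 to 1086 CPM in control samples. The thymocyte markers Cd3e, Rag1 and Ptprc summed to 25.2 to 30.3 CPM in mutant samples and 13.1 to 31.9 CPM in control samples, and fibroblast and endothelial markers stayed at or under 6.34 CPM in each sample. Cells of the Entero-hepato class, the gut- and liver-like cells, were unevenly spread: mutant samples 1 to 4 held 2, 1, 0 and 0 of them, and control samples 1 to 3 held 8, 19 and 55.

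In the mm10 annotation Hnf4a spans chr2:163506808-163572910 on the plus strand, with 10 exons in its fullest transcript and the last exon at chr2:163569949-163572910. Hnf4g spans chr3:3508030-3658052 on the plus strand, also with 10 exons. The antisense gene Hnf4aos runs on the minus strand over chr2:163493807-163541720 and overlaps the upstream 34913 bases of Hnf4a, but not its last exon. Whether the authors' counting used strand is not given in the sources used here, so reads in the shared stretch are uncertain for both genes. The pseudogene Gm37000 and the miRNA gene Gm23237 lie inside Hnf4g, and the small nuclear RNA gene Gm25881 lies inside Hnf4a.

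A promoter of Hnf4a and that of its antisense partner are shown because both RNAs were detected in Ciliated and Neuroendocrine cells, as given further on. RefSeq (GRCm38.p6) starts Hnf4a at a distal and a proximal promoter, and the 3′ assay does not tell their transcripts apart. The distal window is printed. Capitals mark CAAAGTCC, a core of the HNF4 site, searched on both strands.
Hnf4a distal, chr2:163506607-163506906, plus strand: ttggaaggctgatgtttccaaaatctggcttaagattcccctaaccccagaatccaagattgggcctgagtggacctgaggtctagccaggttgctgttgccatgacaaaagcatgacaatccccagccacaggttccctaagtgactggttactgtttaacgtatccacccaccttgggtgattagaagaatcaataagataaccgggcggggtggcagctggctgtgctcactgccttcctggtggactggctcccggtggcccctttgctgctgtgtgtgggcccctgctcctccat
Hnf4aos, chr2:163541672-163541971, minus strand: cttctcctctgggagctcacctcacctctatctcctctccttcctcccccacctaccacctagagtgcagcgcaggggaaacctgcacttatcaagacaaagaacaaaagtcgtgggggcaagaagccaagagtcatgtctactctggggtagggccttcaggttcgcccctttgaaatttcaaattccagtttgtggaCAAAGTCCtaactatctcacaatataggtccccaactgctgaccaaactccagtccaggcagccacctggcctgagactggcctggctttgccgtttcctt
The window of Hnf4aos held 1 HNF4 core, and neither window of Hnf4a held these letters. Over all 32851 RefSeq promoter windows of 300 bases, CAAAGTCC was found in 1.42%. A match is only a run of letters, and binding was not measured.

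The first comparison took all cells of a sample together. In such a sum, fewer cells of a type and less RNA per cell cannot be told apart. Hnf4g was lower in the mutant samples but far from absent. It stood at 88.4, 79.8, 86.1 and 78.1 CPM in mutant samples 1 to 4, against 122, 117 and 116 CPM in control samples 1 to 3. The genotypes did not overlap, and the means were 83.1 ± 4.94 CPM (SD, n = 4) in mutant samples and 118 ± 3.52 CPM (SD, n = 3) in control samples. Among all 21187 genes tested, 4.77% were lower without overlap in the same way. The log2 fold change was -0.50 (edgeR SE 0.06, adjusted p = 0.0384), and edgeR called 0.179% of all genes lower and 0.184% in either direction. The call was lost when any 1 sample was left out (edgeR adjusted p 0.0720 to 0.184). Over all alternatives the adjusted p ran from 1.69e-08 with DESeq2 to 0.406 without Entero-hepato cells, where the fold change was -0.33.

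Hnf4a was rare. It gave 41, 13, 32 and 49 UMIs in mutant samples 1 to 4, or 1.74, 0.673, 1.55 and 2.27 CPM, against 17, 35 and 82 UMIs in control samples 1 to 3, or 1.68, 2.85 and 3.18 CPM. The ranges overlapped through mutant 4, the highest mutant sample, and control 1, the lowest control sample. The log2 fold change of -0.72 (SE 0.40) did not pass (edgeR adjusted p = 0.874). Hnf4aos was rarer still, with 27 UMIs in mutant cells and 45 in control cells, and did not pass the filter on low counts.

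Single classes held Hnf4g at very different levels. Microfold cells, the mimetic counterpart of the gut cells that sample antigen, stood at the top of the ranked classes in both genotypes. They had 546, 423 and 348 CPM in mutant samples 1 to 3, and mutant 4 had 338 CPM in 8 cells, under the minimum of 10 cells for a test. Control samples 1 to 3 had 578, 623 and 1028 CPM. Every mutant sample was thus below every control sample in this class, and in each genotype no other class with at least 3 samples of 10 cells reached its lowest value.

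Entero-hepato cells were the other high class, but in too few mutant cells to rank. The 2 cells of mutant 1 gave 739 CPM and the 1 cell of mutant 2 gave 57.3 CPM, while control samples 1 to 3 gave 920, 924 and 667 CPM over 8, 19 and 55 cells. These control values fall within the range of control Microfold cells.

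A middle group followed. In mutant samples it held Aire-adjacent cells at 251 ± 27.7 CPM (SD, n = 4), Neuroendocrine cells at 223 ± 21.8, Klk-rich cells at 175 ± 56.3, Secretory cells at 172 ± 28.4 and Keratinocyte cells at 170 ± 10.9 CPM (SD, n = 4 each). In control samples it held Neuroendocrine cells at 221 ± 49.0 CPM (SD, n = 3), Secretory cells at 203 ± 66.8, Aire-adjacent cells at 201 ± 61.7 and Keratinocyte cells at 200 ± 34.4 CPM (SD, n = 3 each). Within this group the ranges of neighbours overlapped in both genotypes, so the order inside it was not resolved. Klk-rich cells reached the minimum of 10 cells in 1 control sample only, with 246 CPM.

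Below a gap between Keratinocyte and Aire-expressing cells in both genotypes came the low classes, although single samples did not keep to it. Of the middle group, 1 mutant Klk-rich sample, at 97.0 CPM, reached into the Aire-expressing range. Of the low classes, Ciliated cells of control 2, at 134 CPM, lay above the lowest control Secretory sample, at 126 CPM. Aire-expressing cells, which carry the regulator Aire, had 75.8 ± 22.5 CPM in mutant samples and 86.9 ± 23.4 CPM in control samples (SD, n = 4 and 3). Tuft cells, the chemosensory class and the most numerous one, had 48.5 ± 6.24 CPM in mutant samples and 57.1 ± 5.54 CPM in control samples. Ciliated cells had 12.8 ± 5.85 and Immature cells 46.7 ± 16.6 CPM in mutant samples, against 56.9 ± 67.2 and 24.6 ± 19.97 CPM in control samples. The dividing TA cells had 10.3 ± 4.94 CPM in mutant samples and 8.24 ± 7.02 CPM in control samples. Muscle cells had 5.90 ± 8.10 CPM in mutant samples and 5 UMIs in 42 control cells, with 1.59 CPM in the 1 control sample that held at least 10. Ionocyte cells, of which there were 18 in mutant and 10 in control samples, were too few to rank. They gave 20 and 4 UMIs, or 103 and 38.2 CPM pooled. The 1 mutant sample that held 10 of them had 143 CPM, within the range of the middle group. Transitional cells were lowest among the ranked classes, at 4.66 ± 3.32 CPM in mutant samples and 1.83 ± 1.18 CPM in control samples.

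**Figure D1:**
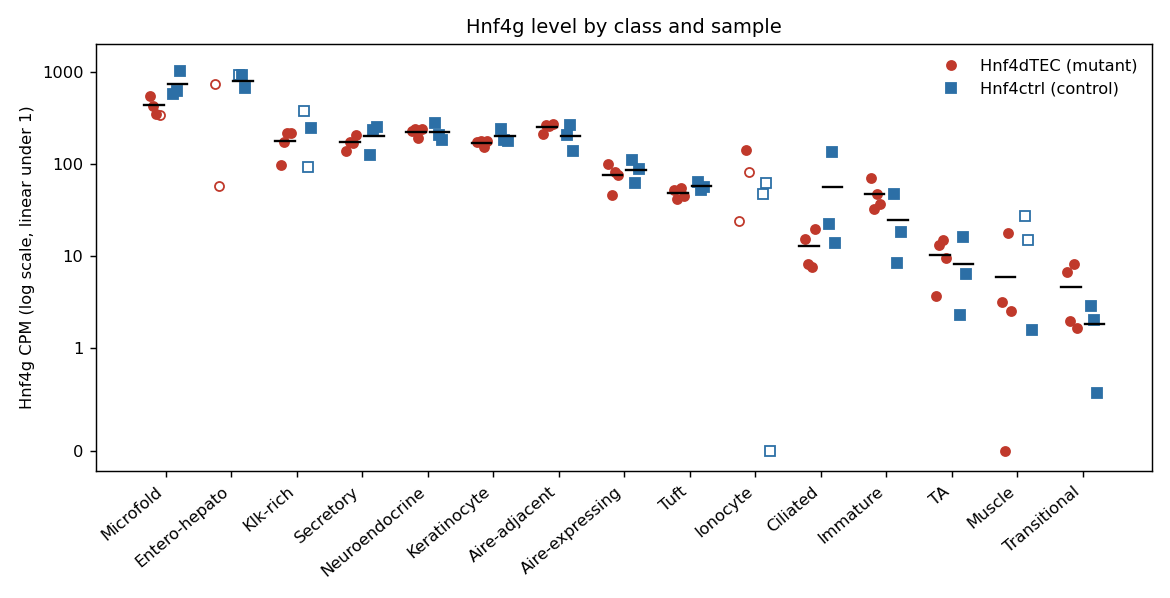
Hnf4g level in CPM (log scale, linear under 1) for each class on the horizontal axis, with 1 point per sample, mutant circles left of control squares. Open symbols are samples with fewer than 10 cells of the class, and bars are means over the filled points. Microfold and Entero-hepato cells are highest, and Muscle, TA and Transitional cells are at the low end.

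The fall over all cells could be divided among the classes, since each class adds its own UMIs to the total. Pooled over samples, Hnf4g stood at 83.2 CPM in mutant cells and 117 CPM in control cells, a difference of -34.2 CPM. Entero-hepato cells contributed 0.552 CPM in mutant cells and 17.5 in control cells. Microfold cells contributed 4.82 CPM in mutant cells and 18.1 in control cells. Both together differed by -30.3 CPM, and the other 13 classes together by -3.99. By sample, both together contributed 8.38, 6.37, 5.28 and 1.29 CPM in mutant samples 1 to 4 and 22.6, 32.5 and 42.2 CPM in control samples 1 to 3, without overlap. These 2 classes have the largest falls in these same values, so the separation describes them and supports nothing further. How many other genes separate in this way was not counted. The other 13 classes contributed 80.0, 73.4, 80.8 and 76.8 CPM in mutant samples 1 to 4 and 99.8, 84.3 and 73.6 CPM in control samples 1 to 3, and overlapped. Their pooled difference rests on single controls: it was -13.5 CPM without control 3, the deepest sample, and 0.791 CPM without control 1, while that of Entero-hepato and Microfold cells lay between -33.7 and -22.6 CPM with any 1 sample left out. Tuft cells contributed 20.6 CPM in mutant cells and 20.4 in control cells, and Neuroendocrine cells 15.3 and 14.4. A contribution combines the number of cells of a class with the level in each cell. Entero-hepato cells numbered 3 of 5890 in mutant samples and 82 of 3295 in control samples. Microfold cells numbered 76 of 5890 (1.29%) in mutant samples and 76 of 3295 (2.31%) in control samples. By sample, Microfold cells were 1.21, 1.60, 1.75 and 0.583% of cells in mutant samples 1 to 4. In control samples 1 to 3 they were 2.25, 2.73 and 2.09%. Both their share of cells and their level were thus lower in each mutant sample. The share was not tested, the level did not pass within the class, and the part of each in the difference was not tested. With the classes weighted to 1 mix, over the classes that had cells in every sample and so without Entero-hepato cells, the log2 fold change of Hnf4g was -0.19 (limma SE 0.05, adjusted p = 0.206).

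**Figure D2:**
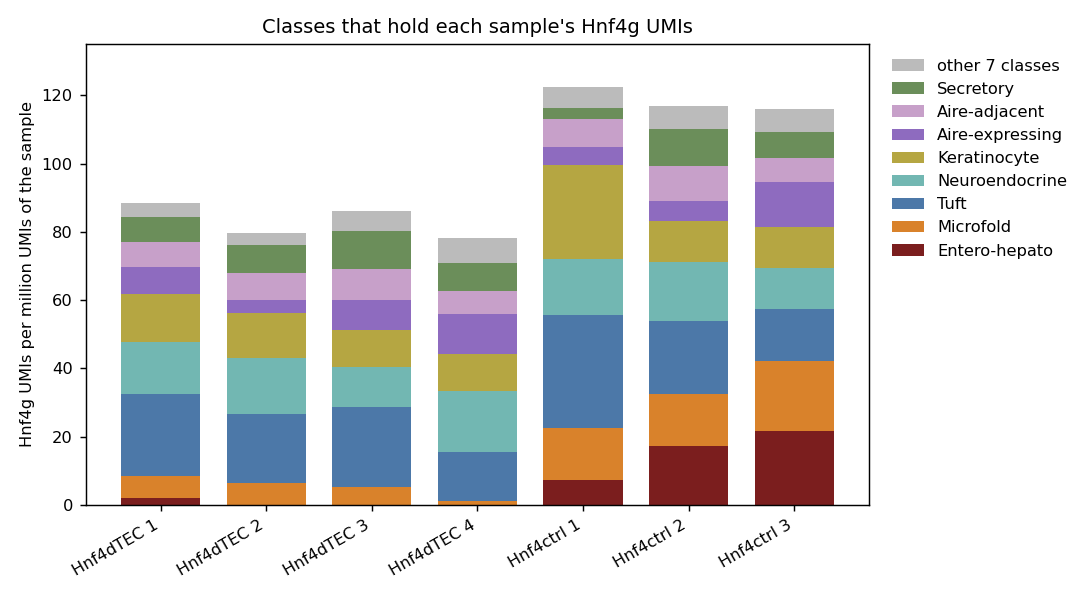
Hnf4g CPM of each sample on the vertical axis, stacked by the class that held them, with the 4 mutant samples left of the 3 control samples. The Entero-hepato and Microfold layers are thin in mutant samples and thick in control samples. The other layers together reach 73.4 to 80.8 CPM in mutant samples and 73.6 to 99.8 CPM in control samples.

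Within single classes the genotypes were compared in the 11 classes with at least 3 samples of 10 cells in each. Hnf4g passed the low-count filter in 10 of them, all but Transitional cells, and edgeR called it in 0 of 10 at an adjusted p under 0.05. The same fits called 3.03% of all genes in Microfold cells, 0.389% in Neuroendocrine cells, 0.0881% in Tuft cells, 0.0799% in Keratinocyte cells and 0.0314% in Secretory cells, and 0.0% in the other 6 classes. At an unadjusted p under 0.05 Hnf4g stood in 4 classes, and DESeq2 also called it in 0.

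The values nevertheless differed in size between classes. In Microfold cells the log2 fold change was -0.82 (edgeR SE 0.28, adjusted p = 0.160), and -0.47 without control 3. The groups did not overlap there, as was true of 10.3% of the genes tested in that class in the same direction. In Ciliated cells it was -1.96 (edgeR SE 0.71, adjusted p = 1.000) and in Tuft cells -0.24 (edgeR SE 0.10, adjusted p = 0.522), while in Immature cells it was 1.02 (edgeR SE 0.41, adjusted p = 0.999). These 4 are the classes with an unadjusted p under 0.05. The Ciliated value was -0.33 without control 2 and -0.79 without Scrublet doublets, and the Immature value was 1.68 without control 1 and 0.68 without control 2. Keratinocyte samples did not overlap either, with 154 to 178 CPM in mutant samples and 179 to 240 CPM in control samples, beside 3.39% of genes lower in that way, and the log2 fold change was -0.27 (edgeR adjusted p = 0.685), or -0.099 without control 1. Neuroendocrine cells lay at 0.05 (edgeR SE 0.14, adjusted p = 0.976), with 227, 239, 192 and 237 CPM in mutant samples 1 to 4 and 276, 207 and 182 CPM in control samples 1 to 3. The mutant values there lie inside the control range. Aire-adjacent, Aire-expressing, Secretory and TA cells lay between -0.30 and 0.33, and their groups overlapped.

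**Figure D3:**
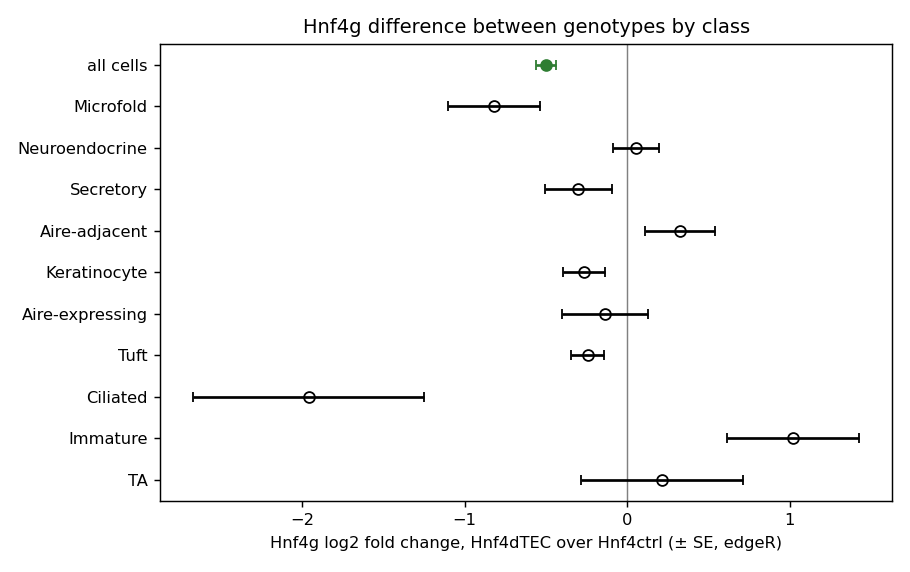
Log2 fold change of Hnf4g, mutant over control, with its SE on the horizontal axis, for all cells and for the 10 classes in which it was tested, in the order of the control level. The filled point passed the edgeR threshold and the open points did not. The all-cells point lies at -0.50, Microfold at -0.82 and Neuroendocrine at 0.05.

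Whether the genotype effect itself differed between classes was tested by setting each class against the mean of the others. Hnf4g passed in 0 of 11 classes with edgeR, beside calls for 1.91% of all genes in Microfold, 0.0564% in Secretory, 0.0439% in Aire-adjacent, 0.0125% in Ciliated and in Neuroendocrine, 0.00627% in Tuft and 0.0% in the other 5 classes, and in 0 with limma-voom, although 2 classes had an unadjusted p under 0.05. The effect in Microfold cells differed from that elsewhere by -0.95 on the log2 scale (edgeR SE 0.37, adjusted p = 0.218), and in Ciliated cells by -1.92 (edgeR SE 0.56, adjusted p = 0.459). With control 2 left out, Microfold passed (edgeR adjusted p = 0.0368), and with control 3 left out, Ciliated passed (edgeR adjusted p = 0.0213) and the Microfold difference shrank to -0.32. Across the alternatives the adjusted p of Microfold ran from 0.000420, without the low-count filter, to 1.000.

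A few cells carried much of the Hnf4g signal in these classes. Cells with at least 10 Hnf4g UMIs numbered 107 of 5890 in mutant samples and 115 of 3295 in control samples, and they held 26.0% of Hnf4g UMIs in mutant samples and 41.6% in control samples. They made up 2.06, 1.52, 1.68 and 1.97% of cells in mutant samples 1 to 4, against 3.37, 2.62 and 4.05% in control samples 1 to 3, so the genotypes did not overlap. UMIs were not thinned for this cutoff, and control 3 was the deepest sample. How many other genes set the genotypes apart by such cells was not counted. In Microfold cells there were 4, 3, 2 and 0 such cells in mutant samples 1 to 4, of 20, 22, 26 and 8, against 6, 5 and 13 in control samples 1 to 3, of 18, 25 and 33. Control Entero-hepato cells included 29 such cells of 82, and so made up 29 of the 115 in control samples. Mutant Entero-hepato cells included 2 of 3. By contrast, Tuft cells included 9 of 2767 in mutant and 2 of 1351 in control samples.

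The cell with most Hnf4g UMIs was a Microfold cell of control 3 with 204 of its 17652 UMIs. It held 23.3% of all Hnf4g UMIs in control Microfold cells, and the next cell in the data had 57. Without the top cell of each sample, Microfold cells had 431, 284 and 191 CPM in mutant samples 1 to 3 and 474, 480 and 658 CPM in control samples 1 to 3, still without overlap. In Ciliated cells 1 cell of control 2 with 32 UMIs held 45.1% of the class's Hnf4g UMIs in control samples. Without top cells, Ciliated samples had 11.7, 0, 5.34 and 16.1 CPM in mutant samples 1 to 4 and 8.01, 49.0 and 11.7 CPM in control samples 1 to 3, and the groups overlapped.

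**Figure D4:**
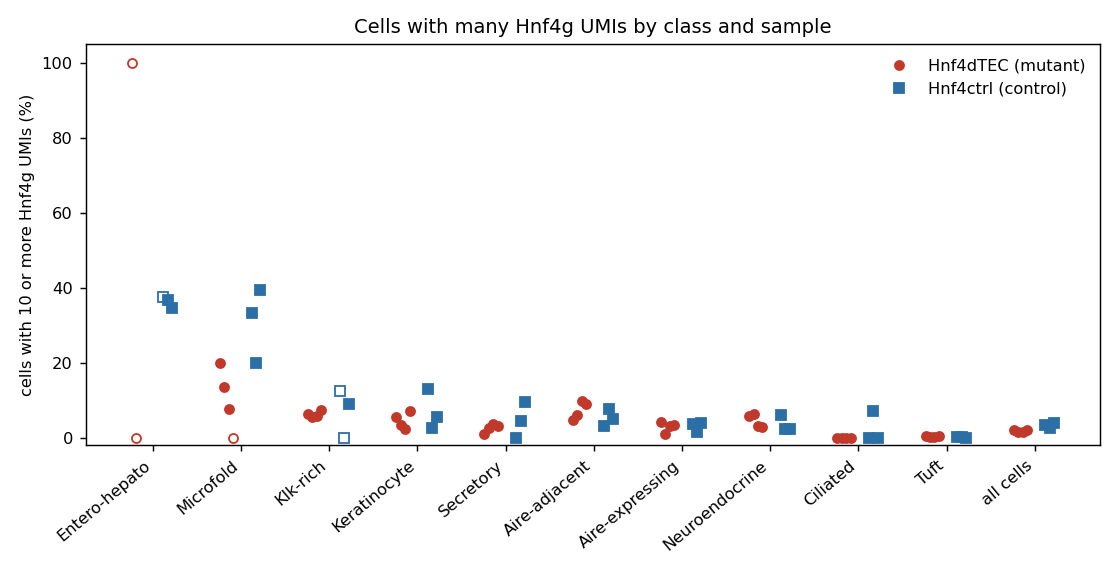
Percent of cells with at least 10 Hnf4g UMIs on the vertical axis for the classes that have such cells and for all cells, with 1 point per sample, mutant circles left of control squares. Open symbols are samples with fewer than 10 cells of the class. Control Microfold samples lie between 20% and 39.4% and the mutant Microfold samples with at least 10 cells between 7.69% and 20%.

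The share of cells with any Hnf4g UMI gave a count per cell in place of a level. After every cell was thinned to 5000 UMIs, it was 24.4, 23.1, 24.0 and 23.3% in mutant samples 1 to 4 and 26.9, 27.2 and 27.3% in control samples 1 to 3. The groups did not overlap, and the means of 23.7 ± 0.60% (SD, n = 4) in mutant samples and 27.2 ± 0.20% (SD, n = 3) in control samples differed by -3.44 percentage points (two-sided exact permutation p = 0.0286, the smallest that the 35 splits allow). Thinning left out 319 mutant and 192 control cells that held fewer UMIs. How many other genes set the genotypes apart by such a share was not counted. The share also depends on the mix of classes, and Tuft cells made up 47.0% of mutant and 41.0% of control cells. Beyond leaving out Entero-hepato cells, the part of the mix was not tested. Without thinning the shares were 37.1 ± 0.74% in mutant samples and 40.8 ± 1.504% in control samples. Transitional cells, lowest in Hnf4g among the ranked classes, had a thinned share of 2.31% in mutant and 0.668% in control samples, unthinned 5.62% and 2.13%, at median depths of 21183 and 18653 UMIs per cell against 12949 and 13208 over all cells. These rest on 22 UMIs in 14 mutant cells, with at most 4 in a cell, and on 3 UMIs in 3 control cells. Free RNA in droplets can give stray UMIs, and its part here was not tested. Without Entero-hepato cells the difference was -2.31 percentage points, with the same p.

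By class, thinned and pooled over samples, the share was 63.3% of mutant and 72.02% of control Microfold cells, 54.6% of mutant and 52.9% of control Neuroendocrine cells, 50.6% of mutant and 40.2% of control Aire-adjacent cells, and 39.1% of mutant and 39.7% of control Keratinocyte cells. In Tuft cells it was 17.1% in mutant and 19.8% in control samples. These shares by class were not tested.

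Hnf4a had a different distribution over the classes. Neuroendocrine cells, the hormone-secreting class, held 88 of its UMIs in mutant cells (65.2%) and 64 in control cells (47.8%). They stood at 14.4, 4.56, 17.3 and 22.7 CPM in mutant samples 1 to 4, against 21.6, 19.4 and 17.9 CPM in control samples 1 to 3. Mutant 2 lay lowest and mutant 4 highest, so the mutant range enclosed that of the controls. The log2 fold change was -0.34 (edgeR SE 0.39, adjusted p = 0.889). This was the 1 class in which Hnf4a passed the low-count filter, so edgeR called Hnf4a in 0 of 1 class, with an unadjusted p under 0.05 in 0, and DESeq2 called it in 0.

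Among classes with at least 3 samples of 10 cells in each genotype, Ciliated cells came next, at 5.62, 2.03, 0 and 3.11 CPM in mutant samples 1 to 4 and 7.48, 5.71 and 10.1 CPM in control samples 1 to 3. These rest on 8 UMIs in 122 mutant cells and 17 UMIs in 75 control cells. The groups did not overlap, as was true of 2.55% of the genes tested in Ciliated cells in that direction, but Hnf4a did not enter the test. In control samples the Ciliated range did not reach that of Neuroendocrine cells, and from Ciliated cells downward the ranges of neighbours overlapped. In mutant samples the ranges of Neuroendocrine and Ciliated cells overlapped as well.

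The 2 classes highest in Hnf4g gave few Hnf4a UMIs, and a difference between these classes was not tested. Microfold cells gave 0 UMIs in 76 mutant cells, which allows up to 3.12 CPM, and 5 UMIs in 76 control cells, or 4.61 CPM (exact Poisson interval 1.495 to 10.75, counting error only), so a difference was not detectable at this depth. Entero-hepato cells gave 4 UMIs in 3 mutant cells, all in the 2 cells of mutant 1, and 14 UMIs in 82 control cells. That was 0, 8.68 and 14.4 CPM in control samples 1 to 3, with 8 cells in control 1. Pooled, control Entero-hepato cells had 12.2 CPM (exact Poisson interval 6.68 to 20.5, counting error only), against 8.93 CPM pooled in control Ciliated cells. The interval overlaps that of control Microfold cells. Keratinocyte cells gave 7 UMIs in each genotype, Secretory cells 4 in mutant and 5 in control samples, and Aire-adjacent cells 0 and 1. Immature and Klk-rich cells gave 0 UMIs in both genotypes.

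**Figure D5:**
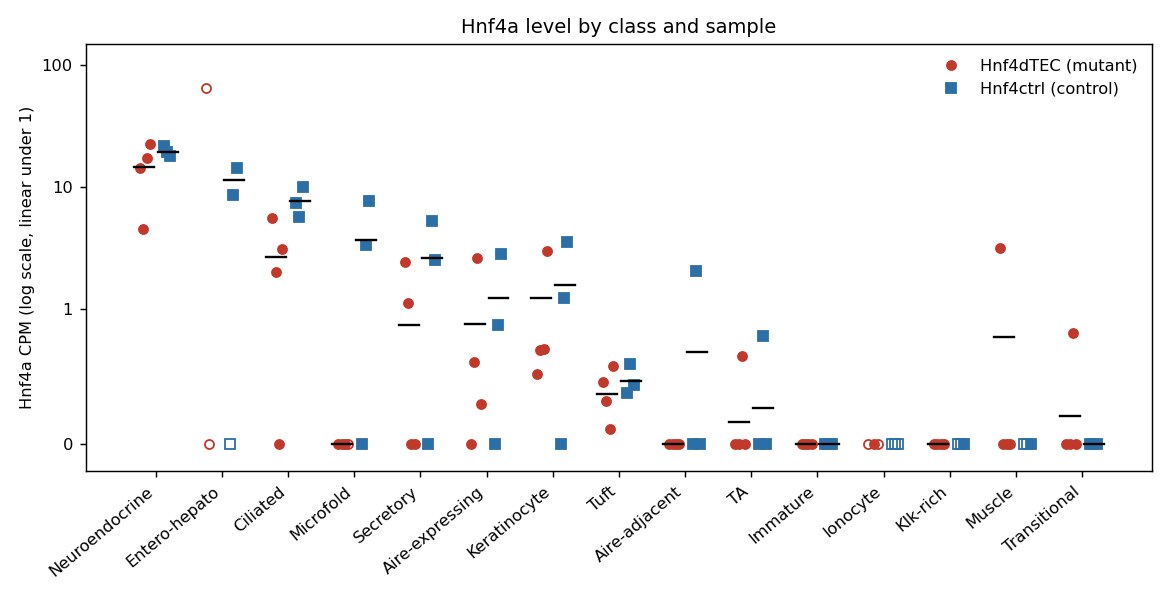
Hnf4a level in CPM (log scale, linear under 1) for each class, with 1 point per sample, mutant circles left of control squares. Open symbols are samples with fewer than 10 cells of the class, and bars are means over the filled points. Neuroendocrine cells are highest among the classes with at least 10 cells per sample, and many classes lie at 0.

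The antisense gene Hnf4aos was highest in Ciliated cells. It gave 10 UMIs in mutant and 29 in control Ciliated cells, of 27 and 45 in all. By sample that was 5.62, 8.12, 0 and 2.08 CPM in mutant samples 1 to 4 and 0, 28.6 and 14.8 CPM in control samples 1 to 3, and the groups overlapped. The 10 UMIs of control 2 were all in 1 of its 14 Ciliated cells. In Neuroendocrine cells it gave 6 UMIs in mutant and 4 in control samples, and in Microfold cells 0 in both.

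Cells with a Hnf4a UMI were looked up for Hnf4g. Of the 93 mutant cells with a Hnf4a UMI 68 also had Hnf4g (73.1%), and of the 96 such control cells 64 did (66.7%), against 36.6% of mutant and 40.4% of control cells without Hnf4a. Within Neuroendocrine cells the shares lay closer, at 77.97% of mutant and 78.7% of control cells with Hnf4a, against 74.0% of mutant and 73.1% of control cells without it. Cells with Hnf4a were deeper, with medians of 14065 UMIs in mutant and 14765 in control cells, against 12938 and 13123 in cells without it. The part of depth in these shares was not tested.

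The genes whose levels followed Hnf4g most closely were found by Pearson correlation of log2(CPM + 1) over 37 sums of class and control sample, among 15817 genes. Parp4 came first (r = 0.92), then Zc3h12d, Reps2, Gpa33, Tapbp, Bsdc1, Atp1b1, Tmprss2, Cltc and Tinag (r = 0.87). Gpa33 encodes a surface antigen of intestinal epithelium, Tmprss2 a membrane serine protease and Cltc the clathrin heavy chain. Parp4, Zc3h12d, Bsdc1, Cltc and Tinag were highest in Microfold cells, by the mean over control samples with at least 10 cells. By that mean Hnf4g was highest in Entero-hepato cells, at 795 CPM over 2 control samples, against 743 CPM in Microfold cells over 3. Over 52 sums of mutant samples 3 of the 10 stayed among the first 10, Parp4, Tapbp and Bsdc1. For Hnf4a the first 5 were 1810008I18Rik (r = 0.80), Tm4sf4, Tm6sf2, Fhl1 and Tmigd3 (r = 0.75), all highest in Neuroendocrine or Ciliated cells, and none of them stayed in the first 5 over mutant samples. The sums of 1 sample share its library and depth, and Hnf4a rests on few UMIs.

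Related receptors and partner factors were set beside the members. HNF4 belongs to the NR2 group of nuclear receptors, with the retinoid X receptors, the testicular receptors and the COUP-TF group. Of 10 such genes 9 were tested over all cells, and edgeR called 0 of them, with 0 at an unadjusted p under 0.05, and DESeq2 called 0. Their median log2 fold change was -0.01, beside 0.00 over all genes. Of 25 factors that work with HNF4 in liver or gut, such as the Foxa, Cdx and Gata factors, 23 were tested and 0 were called by edgeR or DESeq2. Their median was -0.06, and 4 had an unadjusted p under 0.05 in edgeR, beside 1408 of all 21187 genes. Within the 11 classes, edgeR called 0 genes of either list.

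A list of 27 genes described as HNF4 targets in liver or gut was followed beside the factors. Of these 24 were tested over all cells and 6 fell, beside 0.179% of all genes, 0 rose, and the median log2 fold change was -1.31 against 0.00 over all genes. The low-count filter keeps a gene that is high in control samples alone, and the list was chosen with its results known, so these counts describe the list and support nothing further. Anks4b, a scaffold protein of brush border microvilli, had 4.28 ± 0.37 CPM in mutant samples and 17.0 ± 1.09 CPM in control samples (TMM-normalised, SD, n = 4 and 3), a log2 fold change of -1.99 (edgeR SE 0.11, adjusted p = 0.00197). Vil1, the actin-bundling villin of microvilli, lay at -1.06 on the log2 scale, Mep1a, a brush border protease, at -1.79, Trf, the iron carrier transferrin, at -1.42, Pklr, the pyruvate kinase of liver, at -2.62 and Apoc3, a lipoprotein component, at -4.38 (edgeR adjusted p 0.0127 to 0.0460). Without Entero-hepato cells Anks4b alone passed, 1 of the 24, and with 1 sample left out 1 to 6 passed, Anks4b each time.

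The target genes were also tested inside classes, where the limits of the filter and of the list given above hold as well. In Neuroendocrine cells 4 of 11 tested fell, beside 0.336% of all genes. Anks4b had 3.14, 2.28, 3.93 and 3.07 CPM in mutant samples 1 to 4, against 34.9, 30.1 and 32.9 CPM in control samples 1 to 3, with a log2 fold change of -3.33 (edgeR SE 0.26, adjusted p = 0.000252). The other 3 were Cdhr5, a cadherin of microvilli, at -0.91, Lgals4, the gut lectin galectin-4, at -3.13 and Tff3, a trefoil peptide of mucus, at -2.98 (edgeR adjusted p 0.0221 to 0.0422). Hnf4g differed there by 0.05 and Hnf4a by -0.34, neither past the threshold.

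In Microfold cells 8 of the 27 target genes passed the low-count filter, and all 8 fell, beside 2.34% of all genes. They were Anks4b, Apoa4, Apoc3, Cdhr5, Fabp1, Mep1a, Trf and Vil1, with log2 fold changes between -6.70 and -2.47 (edgeR adjusted p 0.000499 to 0.0295). Mep1a had 14.4, 28.0 and 25.6 CPM in mutant samples 1 to 3 and 240, 238 and 213 CPM in control samples 1 to 3. Trf had 3.59, 0 and 0 CPM in mutant samples 1 to 3 and 184, 167 and 121 CPM in control samples 1 to 3. The filter can keep such a gene through its control samples alone, so 8 of 8 describes the list and supports nothing further. With 1 sample left out, Trf, Mep1a, Cdhr5 and Apoc3 passed each time, and the others were lost at least once. The groups of all 8 were apart, beside 10.3% of all genes lower in that way, and Apoa4, Apoc3, Fabp1 and Vil1 are also markers of Entero-hepato cells. In Tuft cells Vil1 and Anks4b fell, 2 of 11 tested beside 0.0678% of all genes, with log2 fold changes of -0.92 and -1.35. In Secretory cells Lgals4 fell, 1 of 5 tested beside 0.0314%, with a log2 fold change of -5.34. Anks4b in Tuft cells, Lgals4 in Secretory and Neuroendocrine cells and Cdhr5 and Tff3 in Neuroendocrine cells were lost with 1 sample left out (edgeR adjusted p up to 0.147, 0.0996, 0.112, 0.194 and 0.119), whereas Anks4b in Neuroendocrine cells and Vil1 in Tuft cells passed each time. In the other 7 classes 0 target genes passed in edgeR, with 0 tested in Immature cells and 1 to 18 in the other 6. In Aire-adjacent cells 5 of 7 had an unadjusted p under 0.05, beside 451 of all 8321 genes, with a median of -1.42. In Keratinocyte cells 4 of 7 did, beside 822 of all 11267 genes, with a median of -1.33. DESeq2 called 2 of 7 in Aire-adjacent and 3 of 7 in Keratinocyte cells, and edgeR without the low-count filter called 6 in each class, 2 in TA and 1 in Transitional cells. In Keratinocyte cells edgeR called 2, Anks4b and Lgals4, without mutant 4. The shares of all genes called in these alternative fits are not given here, so these counts describe the list only.

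The promoters of the target genes were searched for the same letters. RefSeq windows were found for 21 of the 27 genes, 23 windows in all. CAAAGTCC was in 0 of the 23. With the 1.42% of all windows given above, 0 is a likely count in 23 windows, so it does not set the list apart.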

How the data were processed

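Single-cell RNA was measured in 7 hash-tagged samples of 1 10x Genomics run (3′ v3.1 chemistry, per the labels). The deposited matrix holds UMI counts per gene and barcode, made by the authors without normalisation: Cell Ranger 6.1.0, Seurat 4.0.2 and mm10 are named in the submitters' processing notes, and the file header names Cell Ranger 7.0.0. Whether intronic reads were counted is not given in the sources used here. The class and sample of each barcode are those of the authors' deposited cell table, which lists 9185 of 18089 barcodes. How doublets were removed before that is not given. Scrublet (scanpy 1.11.5) was run on 15801 barcodes with at least 500 genes and marked 184 of the 9185 cells (2.00%), and 45 cells had another sample's hash tag on top. Both sets were kept and left out as alternatives. No other filter was applied to cells.

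For each sample the UMIs of all its cells, or of its cells of 1 class, were added up (minimum 10 cells, and 3 such samples per genotype) and tested with edgeR 4.0.16 (filterByExpr, TMM, quasi-likelihood, R 4.3.3), two-sided, with Benjamini-Hochberg adjustment over all genes tested and a threshold of 0.05. CPM is UMIs per 1000000 UMIs of the sum, with TMM only where stated. Class effects were compared in 1 edgeR fit over sums of class and sample, with sample as a fixed term. Alternatives used DESeq2 1.42.0, limma 3.58.1, other scaling, filters and left-out samples. The scripts were tested on simulated data. Shares were thinned as the exact expectation at 5000 UMIs per cell, and intervals and limits of a count of 0 (3 counts) cover counting error only.

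Genes named are the members, genes that overlap them, list genes past the threshold, and the 10 and 5 genes most like Hnf4g and Hnf4a. The members and lists were chosen with earlier results of these data known. Gene positions came from GENCODE mouse annotation of mm10 and promoters from RefSeq, which held 2 windows for Hnf4a and 1 for Hnf4aos. The hash tag library of the same run was used only for the count of mismatched tags.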

Additional observations from a re-analysis of the deposited data

Results flagged for a closer look

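In 5 of 23 groups of 4 mutant samples, 1 sample lay far from the other 3, with a gap to its nearest neighbour above Dixon's 95% critical value when divided by the group's range. Chance flags about 1 in 20 groups of normally spread values. That rate does not hold for counts of a few UMIs, so the 5 groups cannot be read against it. Hnf4g in Aire-adjacent cells was lowest in mutant 1, at 209.3 CPM. Hnf4a was highest in mutant 4 in Keratinocyte cells, at 3.009 CPM, in mutant 1 in Muscle cells, at 3.184 CPM, in mutant 3 in TA cells, at 0.6487 CPM, and in mutant 3 in Transitional cells, at 0.8233 CPM. In Muscle, TA and Transitional cells that value rests on 1 UMI, and the other 3 mutant samples were at 0, so the gap is the whole range whatever the value. In Keratinocyte cells it rests on 4 UMIs in 1 cell.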

How the results depend on the processing

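The fall of Hnf4g over all cells kept its direction under each alternative run. It missed the threshold at -0.44 without the top cell of each class and sample (adjusted p = 0.0507, an alternative chosen after seeing the data), at -0.33 without Entero-hepato cells, at -0.19 in 1 mix of classes, and at -0.53 to -0.47 with 1 sample left out. The 39 genes called over all cells became 233 with DESeq2, 12 without top cells, 9 without Entero-hepato cells and 2 to 31 with 1 sample left out. The 6 target genes became 11, 3, 1 and 1 to 6 under the same alternatives. Without the filter on low counts, Hnf4g passed in 2 classes, Microfold (-0.86) and Ciliated (-1.92), and in 2 tests between classes, the same pair. With 1 sample left out, 0 to 1 class passed between classes. The share of cells differed by -3.67 to -3.25 points with 1 sample left out, where 0.0667 or 0.1 is the smallest exact permutation p. The cause of these changes was not tested.

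Directions turned with 1 sample left out for Hnf4g in Aire-expressing (-0.33 to 0.029), Neuroendocrine (-0.074 to 0.22) and TA cells (-0.12 to 0.86), and for its effect against other classes in Aire-expressing (-0.53 to 0.16), Secretory (-0.63 to 0.084) and Neuroendocrine cells (-0.14 to 0.19). The effect in Neuroendocrine cells was -0.26 with at least 20 cells and -0.088 without Scrublet doublets. The contribution of the other 13 classes ran from -13.5 to 0.791 CPM, leaving out samples after seeing the data. A minimum of 20 cells left no test in Microfold or Ciliated cells.

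With the replicate number as a block, Hnf4g over all cells was -0.47 (adjusted p = 0.169), 7 genes and 2 target genes were called, and 1 target gene, Lgals4, in Keratinocyte cells. Whether the numbers pair the samples was not settled. Deviations of same-numbered samples correlated at 0.229, 0.0836 and 0.0432. Mutant 1 correlated best with control 1 and mutant 3 with control 3, their own numbers, but mutant 2 with control 1 (0.186). Mutant 4, which has no control of its number, correlated best with control 3 (0.41). Classes with few cells and the low UMI count of Hnf4a limit what could be detected.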

Other observations

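The 8904 barcodes with no entry in the authors' cell table held 8889 Hnf4g UMIs, or 90.4 CPM, and 217 Hnf4a UMIs, or 2.21 CPM. Their genotype and class were not assigned here.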
